A study of Mus musculus with 30 samples.

Results

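Sperm collected 24 h after the last injection of tesaglitazar or of vehicle is described here across all of its genes and transposable elements. The samples were taken from the table of polyadenylated sperm RNA, by the treatment and the time that the labels give, and are 8 of the 30 samples of the series: 4 from tesaglitazar-injected males (TESA) and 4 from vehicle-injected males (CTRL). All were C57Bl/6J males, for which an age of 3 months is given at injection. TESA males received tesaglitazar intraperitoneally at 10 µg/kg, 2 times per week for 4 weeks, and CTRL males received the vehicle alone, DMSO in saline, on the same schedule. Sperm came from the cauda epididymis, was let to swim up and was then freed of somatic cells by lysis. Whether a library holds the sperm of 1 male or of several is not stated, so the spread between libraries may be that between males or between pools. TESA carry the replicate numbers 1, 3, 5 and 7 and CTRL the numbers 2, 4, 6 and 8, in which order values are given throughout. The question is which sperm RNAs differ between the groups so soon after the drug.

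Tesaglitazar activates PPARα and PPARγ, nuclear receptors that bind DNA as partners of RXR at direct repeats of a short half-site and switch on genes of fatty acid oxidation and storage. Ripe sperm hold compact chromatin packed with protamines and make almost no new RNA, so that their RNA is left over from spermatids or is taken up on the way through the epididymis. It includes fragments as well as full mRNAs, ribosomal and mitochondrial RNA and RNA of transposable elements.

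In these 8 libraries no gene and no transposable element passed the test between the groups. The lowest p-values among genes with a known function went to Tet2, Cep70, Zfp644, Cep192 and Clk4, which were lower in TESA, and to Prss8, Nmi, Coro1b and Cltb, which were higher. Cytosolic ribosomal proteins and nuclear genes of the respiratory chain lay mostly on the higher side and genes of the centrosome, the axoneme and splicing regulation mostly on the lower side with TMM, of which the axoneme and splicing regulation turn mostly to the higher side with library totals. Fold change also followed gene length, with a median of 0.15 in the shortest of 4 classes of genes and -0.14 in the longest. Whether length bears on these lists was not tested. The genes that PPAR is known to drive lay around 0.

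The TESA libraries held 19757572, 24483818, 18795822 and 27709990 counts and the CTRL libraries 15515206, 15337589, 19373690 and 26261672. TESA 7 and CTRL 8 were the deepest of their groups and CTRL 2 and CTRL 4 the shallowest libraries, and the difference between the groups was not past the threshold (two-sided exact permutation test over 70 divisions, exact p of 0.286, adjusted over 4 values 0.571, where 0.0286 is the smallest p that 4 against 4 samples allow). More than 20 counts were found for 11474, 12531, 11795 and 13814 genes in TESA and 10652, 10770, 12383 and 13550 in CTRL, which follows the totals within each group except that TESA 5 exceeded the deeper TESA 1 and CTRL 4 the deeper CTRL 2. RP23-81C12.3, a gene that has only a clone name, took 38.3, 35.5, 34.3 and 23.4% of the counts in TESA and 37.7, 35.2, 30.8 and 28.05% in CTRL. Lars2, the gene of the mitochondrial leucyl-tRNA synthetase, was assigned 10.8, 11.4, 9.39 and 8.29% in TESA and 11.6, 14.1, 10.005 and 10.3% in CTRL. Whether the counts on either feature come from an mRNA of that gene was not tested. Both shares overlapped between the groups, with exact p of 1.00 and 0.257 in the same permutation test (adjusted 1.00 and 0.571). TESA 7 had the smallest shares of both. Transposable elements took 10.2, 12.4, 9.84 and 10.5% of the counts in TESA and 11.7, 12.1, 9.43 and 10.1% in CTRL, again with overlap (exact p of 0.971, adjusted 1.00). The sign of the small difference in this share turned without TESA 1, CTRL 2, CTRL 4 or TESA 5, and that of RP23-81C12.3 without CTRL 2, CTRL 4 or TESA 7, so that neither share has a direction. The other abundant features were L1Md_T, Mir6236, mt-Rnr2, ORR1A3, n-R5s100, RP24-310M4.2, L1Md_F2 and Rn7s1. Outside the 10 most abundant features 6420726, 7469848, 7384113 and 14767094 counts were left in TESA and 4493519, 3998624, 8312666 and 11209336 in CTRL, a range that sets the precision of all other genes. Across genes, libraries of the same group were no more alike than libraries of different groups: the median Spearman correlation was 0.809 within TESA, 0.815 within CTRL and 0.821 between them (genes are not independent replicates).

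The label of sperm was checked against marker genes. Levels are CPM, the counts of a library scaled to a common total and then by TMM, a factor from edgeR that evens out composition. All 18 markers of late spermatids were in the table, and their summed level was 10479, 5616, 11959 and 7422 CPM in TESA and 9374, 3865, 9726 and 12674 CPM in CTRL. The groups overlapped, CTRL 4 being lowest and CTRL 8 highest, and Odf1, a protein of the outer dense fibres of the tail, was the most abundant of them. Of the 52 markers of the epididymal epithelium 28 were in the table, summing to 2585, 1953, 1987 and 2858 CPM in TESA and 1846, 1851, 3077 and 3823 CPM in CTRL. Spink8, a secreted protease inhibitor, led this list, and its level of 700.1, 608, 573 and 889 CPM in TESA and 524, 534, 848 and 823 CPM in CTRL shows no separation of the groups. Of the epididymal genes, Crisp1, Gpx5, Rnase9, Adam7 and Cst8 were in the table, while Lcn5, Lcn8, Lcn9, Crisp4, Wfdc2 and Ovch2 were not. Leukocyte markers, 29 of 31 in the table, summed to 2368, 1497, 2367 and 2774 CPM in TESA and 2042, 1399.8, 2243 and 1723 CPM in CTRL. Cd52 made up most of this sum, a gene that the epididymal epithelium expresses as well and hands to sperm, while Cd3e and Ms4a1 were not in the table and the defining leukocyte gene Ptprc had 10.8, 8.09, 1.97 and 0.642 CPM in TESA and 13.8, 9.30, 4.51 and 7.59 CPM in CTRL.

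Other cell types were looked at in the same way. Erythrocyte markers, 4 of 12 in the table and led by Hba-a2, summed to 88.8, 133, 64.7 and 147 CPM in TESA and 75.7, 53.5, 153 and 269.9 CPM in CTRL, and Alas2 and Slc4a1 were not in the table. Markers of smooth muscle and fibroblasts, 12 of 15 and led by Col1a1, came to 67.97, 128, 173 and 96.1 CPM in TESA and 67.01, 203, 60.9 and 93.3 CPM in CTRL. The highest sums were those of CTRL 4 and TESA 5, so the groups overlapped. Of 9 endothelial markers only Pecam1 and Vwf were in the table, with sums of 23.8, 22.1, 21.5 and 18.6 CPM in TESA and 55.98, 30.3, 20.6 and 25.9 CPM in CTRL, nearly all of it Vwf. Of 9 adipocyte markers 3 were in the table, with Lipe in the lead and Adipoq, Plin1 and Lep not in the table, and they summed to 99.2, 62.98, 143 and 81.8 CPM in TESA and 111, 68.3, 75.6 and 94.02 CPM in CTRL. Sertoli and Leydig cell markers were 2 of 14, and their sum of 379, 383, 1208 and 802 CPM in TESA and 394, 611, 419 and 550.1 CPM in CTRL was almost entirely Clu, clusterin, which epididymal cells also make; Wt1, Amh, Star and Cyp17a1 were not in the table. Spermatogonia markers, 7 of 11 and led by Uchl1, gave 61.4, 40.7, 53.3 and 46.3 CPM in TESA and 91.996, 53.2, 64.2 and 45.9 CPM in CTRL. Spermatocyte markers, 7 of 17, gave 199.8, 97.9, 275 and 150.4 CPM in TESA and 207, 77.9, 194 and 286 CPM in CTRL, nearly all from Syce2, while Sycp1, Sycp2, Sycp3 and Spo11 were not in the table. In none of these lists did the summed levels of the groups separate. RNA of other cells and RNA that sperm carry, or fewer cells of a type and less RNA per cell, cannot be told apart in such bulk samples, and the part of other cells in any difference below was not tested.

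Among the 13041 mRNAs and lincRNAs tested with edgeR (quasi-likelihood), 0 (0%) reached an adjusted p below 0.05, 128 (0.982%) had an unadjusted p under 0.05 on the higher side in TESA and 185 (1.42%) on the lower. The exact test of edgeR, DESeq2 and limma voom also passed 0, with 130 higher and 192 lower, 186 higher and 233 lower, and 387 higher and 533 lower at the unadjusted p of 0.05. These counts turn on single libraries: without TESA 3 there were 206 higher, without TESA 7 82 and without CTRL 8 84. The 4 TESA libraries all lay below the 4 CTRL libraries for 218 genes (1.67%) and all above for 180 (1.38%), in sum 398, or 228 with library totals, 589 without CTRL 8 and 1010 without TESA 3, the last 2 with 1 library less to overlap. The median log2 fold change, TESA over CTRL, was -0.01, with 6646 genes below 0. Division by library totals without TMM moved this median to 0.21, with 4354 genes below 0 and 117 higher and 26 lower at the unadjusted p, so that a median below is best read against that of all genes. P-values measure the spread between these samples alone, and all p-values given for single genes are unadjusted, from the quasi-likelihood test; the adjusted p of every gene in edgeR was 1.00.

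Tet2, the dioxygenase that oxidises methylated cytosine, had 4.19, 3.55, 2.32 and 1.93 CPM in TESA and 9.19, 22.7, 7.62 and 7.26 CPM in CTRL. All 4 TESA libraries were below all 4 CTRL libraries, of which CTRL 4 stood far above the rest. Its log2 fold change was -1.97 (SE 0.48) and its unadjusted p 0.00211. The related Tet3 showed no such gap, with 15.9, 26.99, 15.97 and 13.7 CPM in TESA and 12.95, 33.4, 11.6 and 11.6 CPM in CTRL, TESA 3 and CTRL 4 being highest in their groups. Among the 16 tested genes of DNA methylation and demethylation Tet2 was the only one with an unadjusted p under 0.05. The median of this list was -0.04, near that of all genes, and 0.19 with library totals; Dnmt3b and Dnmt3l were not in the table. Zfp644, a zinc finger protein that recruits histone methyltransferases, had 4.44, 1.64, 2.76 and 3.58 CPM in TESA and 8.02, 11.4, 7.23 and 7.56 CPM in CTRL. Here too the groups were apart, with a log2 fold change of -1.46 (SE 0.40) and an unadjusted p of 0.00430. Of the 200 tested genes named Zfp, Zfp644, Zfp319, Zfp367, Zfp451 and Zfp598 were lower at an unadjusted p under 0.05 and Zfp64 was higher, and the list had a median of -0.03, or 0.17 with library totals. Lower ones numbered 1 with library totals, 9 under limma voom, 2 without CTRL 4, 3 without TESA 1, TESA 5, CTRL 6 or CTRL 8 and 6 without TESA 7, and higher ones 2 without TESA 1 or TESA 5 and 0 without CTRL 2, CTRL 6 or CTRL 8.

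Cep70, a centrosomal protein that organises microtubules, had 7.65, 9.86, 7.15 and 13.3 CPM in TESA and 27.6, 16.2, 19.3 and 23.3 CPM in CTRL. TESA 7, the highest of its group, was still below CTRL 4, the lowest of the controls. The log2 fold change was -1.18 (SE 0.29, unadjusted p 0.00213). Cep192, a scaffold of the pericentriolar material, had 41.8, 26.2, 35.6 and 26.7 CPM in TESA and 76.6, 53.8, 48.03 and 56.2 CPM in CTRL. The 2 groups did not overlap, CTRL 2 being the highest library, and the log2 fold change was -0.85 (SE 0.24, unadjusted p 0.00541). Cep295, needed for centrioles to lengthen, had 17.6, 13.1, 8.03 and 8.05 CPM in TESA and 25.2, 21.4, 17.4 and 18.996 CPM in CTRL, with TESA 1 reaching into the range of the controls. Its log2 fold change was -0.83 (SE 0.31, unadjusted p 0.0225). Pericentrin, the product of Pcnt and the most abundant of the list, had 144, 106, 114 and 90.01 CPM in TESA and 224, 133, 131 and 128 CPM in CTRL, overlapping groups with CTRL 2 far above all others. Of 72 centrosomal genes 66 were tested: these first 3 were the ones with an unadjusted p under 0.05, 44 were below 0 and the median was -0.21. The difference of this median from that of all genes ran from -0.35 to -0.11 over all alternatives, and with library totals the median itself was -0.05 with 37 below 0. At that p no gene of the list was lower with library totals and 7 were under limma voom. The summed level of the list was 709.7, 709.5, 663 and 551 CPM in TESA and 951, 771, 733 and 796 CPM in CTRL, apart by a small step from TESA 1 to CTRL 6. Of the 43 lists and element families looked at here, the sums of 4 had all TESA libraries below the controls with TMM (centrosome, axoneme, regulators of spermiogenesis and ERVK-like elements) and 0 had them above, and with library totals all 43 overlapped.

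Several genes of the axoneme, the microtubule core of the tail, showed the same direction. Hydin, a protein of its central pair, had 104, 67.3, 66.8 and 59.2 CPM in TESA and 149, 127, 98.1 and 93.4 CPM in CTRL. TESA 1 lay within the range of the controls and the other 3 below it, and the log2 fold change was -0.66 (SE 0.25, unadjusted p 0.0274). Dnah7b and Dnah7c, heavy chains of inner dynein arms, had log2 fold changes of -0.83 (SE 0.34, unadjusted p 0.0336) and -0.76 (SE 0.29, unadjusted p 0.0251). Dnah7c had 6.97, 8.95, 8.87 and 8.08 CPM in TESA and 16.5, 9.87, 10.8 and 18.5 CPM in CTRL, which leaves a narrow gap between TESA 3 and CTRL 4. Of 67 tested genes of axonemal motors and flagellar assembly these 3 were the ones with an unadjusted p under 0.05, 43 were below 0 and the median was -0.19; with library totals the median was 0.06 with 29 below 0, still under that of all genes. Without CTRL 2, TESA 5 or CTRL 8 the number of lower genes was 1, without TESA 7 it was 0, without each of the other 4 libraries it was 2, and with library totals it was 0. The summed level of the list was 624, 638, 587 and 548 CPM in TESA and 845, 639.9, 658 and 734 CPM in CTRL, a gap too narrow to rest on, since it closes with library totals. Intraflagellar transport and kinesin genes, 37 tested, had 25 below 0 and a median of -0.16, or 0.06 with 16 below 0 under library totals and -0.06 without TESA 1. None had an unadjusted p under 0.05, while 4 were lower at that p under limma voom, 3 without TESA 3 and 1 without TESA 1, and 1 was higher in DESeq2, with DESeq2 size factors, with the 2 most abundant features left out, with a robust fit, and without CTRL 6 or TESA 7. Against the direction of the median, Ift22, of the transport complex and with the smallest unadjusted p of the list (0.0529), had 13.4, 13.2, 12.9 and 11.2 CPM in TESA and 9.02, 5.34, 10.3 and 8.42 CPM in CTRL, with all TESA libraries above the controls. Their most abundant member, the kinesin Kif5c, varied widely, with 49.8, 211, 43.1 and 129 CPM in TESA and 63.6, 115, 56.4 and 75.8 CPM in CTRL.

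Clk4, a kinase that phosphorylates the SR proteins of the spliceosome, had 10.7, 13.9, 11.8 and 17.3 CPM in TESA and 22.6, 23.3, 22.02 and 25.3 CPM in CTRL. The controls lay close together and above every TESA library, of which TESA 7 was the highest. Its log2 fold change was -0.79 (SE 0.22, unadjusted p 0.00557). Tra2a, a splicing regulator with such SR repeats, had 3.64, 8.74, 9.61 and 13.1 CPM in TESA and 25.8, 18.6, 12.03 and 18.8 CPM in CTRL. TESA 7 overlapped with CTRL 6, TESA 1 was the lowest library, and the log2 fold change was -1.09 (SE 0.39, unadjusted p 0.0197). All 38 tested CLK kinases and SR factors had a median of -0.16 with 29 below 0. No gene of the list was lower at an unadjusted p under 0.05 with library totals. The median and the number below 0 were then 0.06 and 14, and the median stayed under that of all genes, by -0.22 to -0.06, in each alternative run. Zcchc11, also named Tut4, adds uridines to the ends of mRNAs and miRNA precursors. It had 18.9, 14.2, 10.3 and 10.3 CPM in TESA and 22.1, 21.8, 26.4 and 30.3 CPM in CTRL. No TESA library reached the lowest control, and the log2 fold change was -0.91 (SE 0.27, unadjusted p 0.00652). Without TESA 3, 2 genes of miRNA processing and Argonaute were lower and 1 higher at an unadjusted p under 0.05, while with all libraries the other 18 had none (list median -0.13, with library totals 0.12, 0.09 without CTRL 4 and 0.04 without TESA 1). Under limma voom 4 of the list were lower at that p. In the piRNA pathway 15 of 29 genes were tested, none with an unadjusted p under 0.05, and the median of 0.10 turned to -0.25 under limma voom. The 44 tested genes of mRNA storage and translation in germ cells, with the elongation factor Eef1a1 most abundant, had a median of -0.06, or 0.12 with library totals, and none had an unadjusted p under 0.05.

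Brwd1, a bromodomain protein that spermatids need to complete their programme, had 98.6, 86.8, 86.5 and 76.4 CPM in TESA and 142, 133, 111 and 129.5 CPM in CTRL. The groups were apart, with the gap lying between TESA 1 and CTRL 6. The log2 fold change was -0.57 (SE 0.19, unadjusted p 0.0135), and the other 27 tested regulators of spermiogenesis had no unadjusted p under 0.05. At that p none was lower and 1 was higher with library totals, 2 were higher and 3 lower under limma voom, and 2 were higher without TESA 1 and 1 without CTRL 2 or TESA 7. Their median was -0.19 with TMM and 0.08 with library totals, and 0.01 without TESA 1. Among enzymes that modify histones, Setd8, which methylates histone tails, was higher, with 15.05, 13.6, 14.3 and 13.03 CPM in TESA and 5.10, 7.44, 9.85 and 9.18 CPM in CTRL. All TESA libraries lay close together and above every control, and the log2 fold change was 0.82 (SE 0.28, unadjusted p 0.0140). On the lower side stood Setd2, a methyltransferase that follows the elongating polymerase, with -0.88 (SE 0.36, unadjusted p 0.0328), the demethylase Kdm6a with -0.97 (SE 0.41, unadjusted p 0.0404) and the arginine methyltransferase Prmt1 with -1.29 (SE 0.57, unadjusted p 0.0464). In each of these 3 the groups overlapped. The 76 tested histone modifiers had a median of -0.04, or 0.20 with library totals, and 43 were below 0 (25 with library totals). The number of lower ones with an unadjusted p under 0.05 was 0 without CTRL 4, TESA 5 or CTRL 8 and with library totals, 5 under limma voom, 1 without TESA 1 and 2 without TESA 7, and the number of higher ones was 4 under limma voom, 3 without TESA 1 and 2 without CTRL 4 or CTRL 6.

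On the higher side the smallest unadjusted p belonged to Prss8, prostasin, a membrane-bound protease that activates the epithelial sodium channel. It had 36.02, 27.8, 24.8 and 27.7 CPM in TESA and 13.3, 10.6, 22.995 and 14.2 CPM in CTRL. Every TESA library was above every control, CTRL 6 coming nearest, and the log2 fold change was 0.93 (SE 0.28, unadjusted p 0.00728). Nmi, an interferon-induced partner of STAT proteins, had 4.69, 6.96, 8.87 and 8.12 CPM in TESA and 1.42, 1.13, 4.46 and 1.62 CPM in CTRL. TESA 1 was just above CTRL 6, which stood far from the other 3 controls, and the log2 fold change was 1.72 (SE 0.52, unadjusted p 0.00778). Coro1b, a coronin that binds actin, had 15.05, 18.6, 32.4 and 20.7 CPM in TESA and 12.8, 11.8, 12.1 and 9.61 CPM in CTRL. Here the groups were apart with TESA 5 highest, and the log2 fold change was 0.91 (SE 0.28, unadjusted p 0.00856). Arpc3, a subunit of the Arp2/3 complex that branches actin filaments, had 16.2, 20.03, 21.7 and 19.7 CPM in TESA and 14.6, 12.9, 7.62 and 9.88 CPM in CTRL, again without overlap (0.79, SE 0.26, unadjusted p 0.0134).

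Cltb, a light chain of clathrin, had 12.3, 7.53, 11.7 and 11.1 CPM in TESA and 3.01, 5.66, 6.06 and 5.40 CPM in CTRL. TESA 3 was the lowest of its group and still above all controls, and the log2 fold change was 1.08 (SE 0.33, unadjusted p 0.00917). Mon1a, part of the exchange factor of Rab7 on late endosomes, had 10.3, 17.3, 14.2 and 17.1 CPM in TESA and 7.94, 8.49, 9.90 and 5.40 CPM in CTRL. It did not overlap either, with CTRL 8 lowest, and the log2 fold change was 0.90 (SE 0.29, unadjusted p 0.0121). Vat1, a vesicle membrane protein, and Sap25, a subunit of the Sin3 corepressor, had log2 fold changes of 0.73 (SE 0.23, unadjusted p 0.0102) and 1.07 (SE 0.35, unadjusted p 0.0117), both with all TESA libraries above the controls. Lcn2, a lipocalin that binds siderophores and is one of the epididymal markers, had 14.99, 26.9, 36.96 and 27.99 CPM in TESA and 11.1, 19.005, 11.6 and 13.3 CPM in CTRL. TESA 1 fell below CTRL 4 while the other TESA libraries were above all controls. Its log2 fold change was 0.96 (SE 0.31, unadjusted p 0.0114), whereas the 28 tested epididymal markers had a median of 0.01, or 0.22 with library totals and -0.27 under limma voom, and the rest had no unadjusted p under 0.05. Without TESA 5, 2 markers were higher at that p. Gm47283 and RP23-307I20.1, whose products are not known, completed the 12 genes with the lowest p on this side.

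The genes with the lowest p on the lower side included many that have only a clone name. RP23-175J8.3 had 41.9, 32.5, 33.9 and 38.5 CPM in TESA and 76.9, 68.2, 60.3 and 56.6 CPM in CTRL. The groups were apart, from TESA 1 to CTRL 8, with a log2 fold change of -0.84 (SE 0.20) and the smallest unadjusted p of all genes, 0.00163. RP23-464F22.3 had -1.01 (SE 0.25), RP24-238M4.4 -0.98 (SE 0.25) and RP23-9O15.2 -1.04 (SE 0.26), each without overlap. RP23-400N18.3, RP23-438F16.2 and RP23-438F16.20 made up the rest of the 12 genes. The absence of overlap rests on the scaling in part. Most of the 55 features with a fold change given here were named for a small p in these libraries, which favours groups apart. Of them, 20 had all TESA libraries below and 13 all above the controls. Over all tested genes the shares were 1.67% below and 1.38% above, and over all tested elements 8.44% and 0%. Without TMM, by library totals, 7 of the 20 and 4 of the 13 were still apart. The 7 were Tet2, Cep192, Zfp644, Zcchc11, Nr2c2, Gm8251 and the element RLTR45-int, and the 4 were Prss8, Cltb, Arpc3 and Setd8. Their log2 fold changes kept their sign in each alternative run, which their choice by a small p in the same libraries makes likely. Conversely, Cep295 and Hydin overlapped with TMM but had all TESA libraries below the controls with library totals. Psmd1 and BGLII_B2 overlapped with TMM but had all TESA libraries above the controls with library totals.

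**Figure D1:**
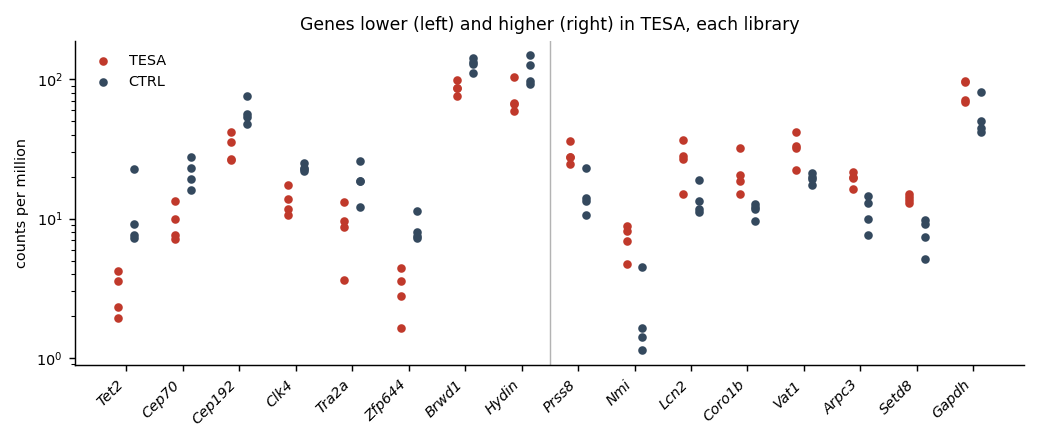
Level of 16 genes in each library (CPM, log axis), with the 4 TESA libraries in red and the 4 CTRL libraries in blue grey; 8 genes were lower and 8 higher in TESA with an unadjusted p under 0.05, and none passed the adjusted threshold in edgeR. For Tet2 the TESA libraries run from 1.93 to 4.19 CPM and the CTRL libraries from 7.26 to 22.7, without overlap.

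Of the drug's own receptors and their partners, Ppara, Pparg, Rxrg and the coactivator Ppargc1a were not in the table. Ppard, the PPAR that was in the table, had 11.5, 13.1, 7.74 and 12.9 CPM in TESA and 7.94, 10.6, 7.86 and 8.16 CPM in CTRL. The groups overlapped and the log2 fold change was 0.39 (SE 0.28, unadjusted p 0.193). Rxra had 16.6, 16.6, 28.2 and 17.7 CPM in TESA and 15.1, 14.6, 14.3 and 15.1 CPM in CTRL. Each TESA library was above each control, with TESA 5 far above the other 3, yet the log2 fold change of 0.42 (SE 0.24) had an unadjusted p of 0.111, and with library totals the groups overlapped. Rxrb had overlapping groups and a log2 fold change of 0.22 (SE 0.29, unadjusted p 0.465). Together with coregulators such as Ncoa1, Ncor1 and Lpin1 the list had 21 tested genes, 12 below 0 and a median of -0.20, which was 0.09 with library totals and 0.10 without CTRL 4; none had an unadjusted p under 0.05. Of 39 other nuclear receptors 22 were tested. Nr2c2, an orphan receptor that is abundant in testis, had 9.25, 8.82, 8.92 and 4.66 CPM in TESA and 13.6, 13.9, 13.2 and 10.5 CPM in CTRL. The groups were apart with TESA 7 far below the rest, and its log2 fold change of -0.69 (SE 0.30) had an unadjusted p of 0.0415, the only one of that list under 0.05. No receptor of the list was lower at that p without CTRL 2, TESA 5, CTRL 6 or TESA 7, in edgeR's exact test or with library totals, and 2 were without CTRL 8, with TMM over the tested genes alone or with a robust fit. Limma voom gave 2 higher and 2 lower, and 1 was higher without CTRL 4. The median was -0.15, or 0.19 with library totals.

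The target genes of PPAR lay close to all genes. Of 76 targets 55 were in the table and 51 were tested, 29 above and 22 below 0, with a median of 0.02 (0.23 with library totals, 11 below 0) and none with an unadjusted p under 0.05. Classical targets of liver, muscle and fat, among them Cyp4a10, Cyp4a14, Pdk4, Fgf21, Angptl4, Fabp1 and Ucp3, were not in the table. Acsl1, which activates long fatty acids and was the most abundant target, had 668, 507, 746 and 519.6 CPM in TESA and 489.7, 439.9, 614 and 863 CPM in CTRL. CTRL 4 was lowest and CTRL 8 highest, so the range of the controls enclosed that of TESA. Cpt1a, the gate of fatty acids into mitochondria, had 7.89, 22.9, 14.6 and 13.97 CPM in TESA and 13.9, 30.2, 8.49 and 13.4 CPM in CTRL. CTRL 4 was the highest library, followed by TESA 3, and the groups overlapped. Etfa, with the smallest unadjusted p of the targets (0.0919), had 1.85, 0.952, 0.69 and 1.97 CPM in TESA. In CTRL it had 0.836, 4.69, 3.35 and 4.24 CPM, and the groups overlapped. Among 64 tested genes of lipid synthesis, storage and sterols Mgll and Elovl1 had an unadjusted p under 0.05, both higher. Mgll, the lipase that splits monoglycerides, had 139.8, 238, 157 and 238 CPM in TESA and 106, 139.8, 131 and 111 CPM in CTRL. TESA 3 and TESA 7 were far above the controls and TESA 1 level with CTRL 4, at a log2 fold change of 0.66 (SE 0.25, unadjusted p 0.0225). Elovl1, which lengthens saturated very long fatty acids, had 17.7, 9.82, 12.4 and 13.6 CPM in TESA and 6.43, 10.3, 8.25 and 8.16 CPM in CTRL. TESA 3 fell below CTRL 4 and the others were above all controls (0.69, SE 0.28, unadjusted p 0.0348). The list as a whole had 40 genes below 0 and a median of -0.07, or 22 and 0.11 with library totals. The number of higher ones at that p was 1 without TESA 1, TESA 3 or CTRL 6 and 0 without CTRL 2, TESA 7 or CTRL 8.

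All 13 mRNAs of the mitochondrial genome were below 0, with log2 fold changes from -0.77 to -0.18 and none with an unadjusted p under 0.05. Their summed level was 45884, 19569, 20074 and 21305 CPM in TESA and 35138, 9409.8, 56747 and 33721 CPM in CTRL. TESA 1 stood far above the other TESA libraries, CTRL 6 was the highest and CTRL 4 the lowest of all, and the groups overlapped. The median of -0.34 rests on single libraries, since it was -0.07 with 8 below 0 without CTRL 6 and -0.72 without TESA 1. mt-Nd3, a subunit of complex I with the lowest p of them, had 91.1, 51.3, 112 and 93.3 CPM in TESA and 204, 43.3, 219.6 and 127 CPM in CTRL, with CTRL 4 below every TESA library (-0.77, SE 0.45, unadjusted p 0.119). Of 81 tested respiratory chain genes of the nuclear genome 61 were above 0, with a median of 0.27 that exceeded that of all genes in each alternative run, by 0.11 to 0.41. Atp5g1, which encodes the c subunit of ATP synthase, had 39.5, 30.6, 47.5 and 44.03 CPM in TESA and 28.2, 15.8, 32.6 and 20.7 CPM in CTRL. TESA 3 fell within the range of the controls and the log2 fold change was 0.73 (SE 0.27, unadjusted p 0.0216). Ndufs8, a subunit of complex I, had 13.2, 12.9, 13.7 and 14.7 CPM in TESA and 7.35, 9.30, 10.8 and 9.18 CPM in CTRL, without overlap (0.57, SE 0.24, unadjusted p 0.0368). These were the list's 2 genes with an unadjusted p under 0.05, both higher. Higher ones numbered 12 without CTRL 6, 11 without TESA 3, 1 without CTRL 2, TESA 5 or TESA 7 and 0 without CTRL 8. DESeq2 gave 6 higher at that p, its size factors in edgeR 5 and limma voom 4. With the 2 most abundant features left out there were 4, and with library totals 1. Lower ones at that p numbered 2 under limma voom and 1 without TESA 3. The summed level of the list was 3398, 2179, 3302 and 3255 CPM in TESA and 2386, 1797, 3368 and 2549 CPM in CTRL, where TESA 3 and CTRL 4 were the low libraries of their groups.

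Of 85 tested cytosolic ribosomal proteins 78 were above 0, with a median of 0.28. None had an unadjusted p under 0.05, while 3 were higher at that p without TESA 3 and 1 was lower without CTRL 4. Their summed level was 39305, 19692, 45340.1 and 36148 CPM in TESA and 28584, 18166, 39847 and 27546 CPM in CTRL. TESA 3 and CTRL 4 were again low, TESA 5 was high and the groups overlapped widely. The median was above that of all genes in each alternative run, by 0.12, without CTRL 4, to 0.49, without TESA 3. Rpl10a, with the lowest p of the family, had 246, 116, 308 and 221 CPM in TESA and 110.2, 105, 234 and 167 CPM in CTRL and a log2 fold change of 0.53 (SE 0.36, unadjusted p 0.167). Of 45 tested proteasome genes 28 were above 0 with a median of 0.14. Psmd1 and Psmd3, subunits of its regulatory cap, had log2 fold changes of 0.65 (SE 0.26, unadjusted p 0.0332) and 0.64 (SE 0.28, unadjusted p 0.0457), both with overlap, and proteasome genes higher at that p numbered 4 without CTRL 6, 1 without TESA 1, CTRL 4 or CTRL 8 and 0 without CTRL 2, TESA 3 or TESA 5, and 1 with library totals. Antioxidant enzymes, 32 tested and led by Gpx3, had a median of 0.17 with 21 above 0, while heat shock proteins and chaperones, 47 tested, had -0.11 with 20 above 0, or 0.12 and 32 with library totals. The heat shock median was 0.06 without CTRL 8 and 0.02 without CTRL 2. With all libraries neither list had a gene with an unadjusted p under 0.05 in the quasi-likelihood test. Antioxidant enzymes at that p were 3 higher and 1 lower without TESA 3, 2 higher without CTRL 6, 1 higher without TESA 5 and 2 lower under limma voom, and heat shock genes were 1 lower without TESA 1 and 1 higher under limma voom.

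**Figure D2:**
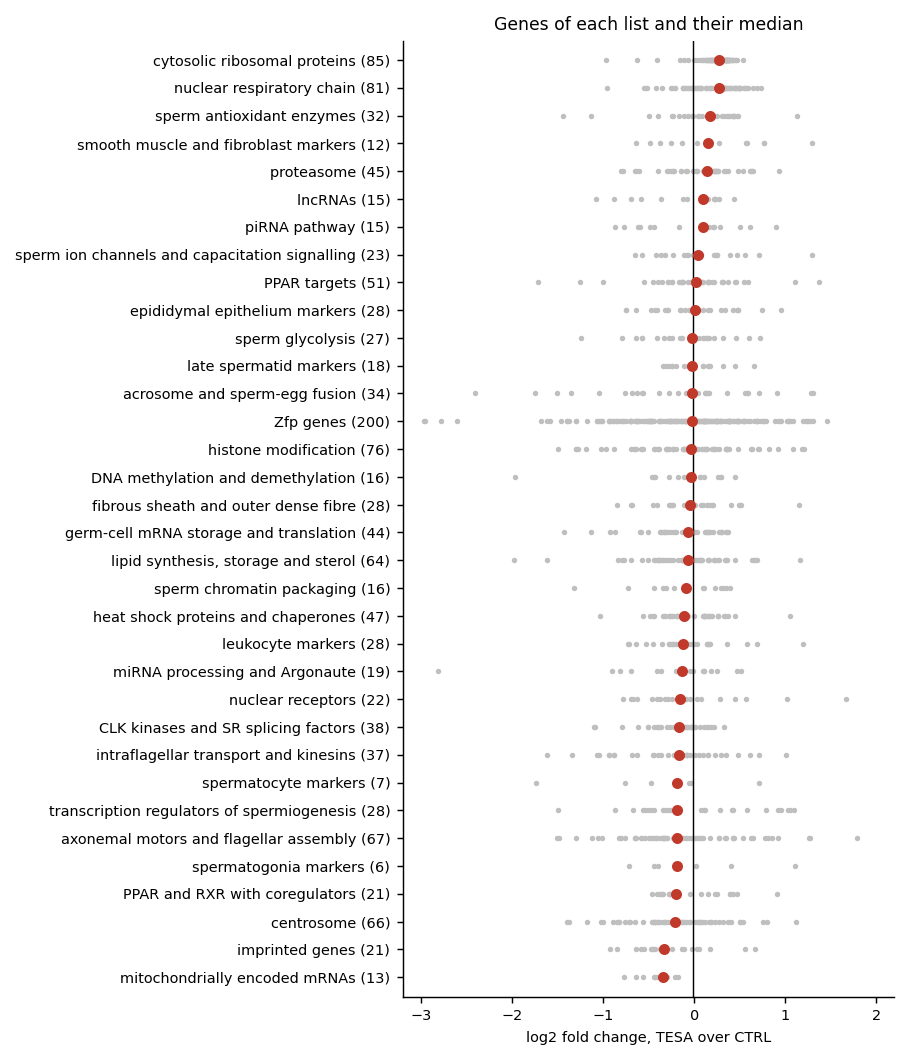
Log2 fold change, TESA over CTRL, of each tested gene (grey) and its median (red) in the lists with at least 5 tested genes, the number in brackets; the vertical line is the median of all 13041 genes. Medians run from -0.34 for mitochondrially encoded mRNAs to 0.28 for cytosolic ribosomal proteins; without TMM, by library totals, the median of all genes moves to 0.21 and most medians below 0, among them those of the axoneme and of splicing regulation, turn above 0.

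The genes that build the sperm head and tail did not separate the groups. Prm2, a protamine, had 1944, 1495, 2827 and 1675 CPM in TESA and 2038, 726, 1586 and 2015 CPM in CTRL, and Prm1 had 255, 139.7, 219 and 169 CPM and 322, 106, 256 and 289 CPM. CTRL 4 was the lowest library for both and for the transition proteins Tnp1 and Tnp2, and the 16 tested genes of chromatin packaging had a median of -0.09, or 0.12 with library totals, and no unadjusted p under 0.05. In the fibrous sheath and outer dense fibres, 28 genes tested, the median was -0.04 (0.24 with library totals, -0.28 without CTRL 4 and 0.19 without CTRL 8). Gykl1, a glycerol kinase of the testis, was its one gene with an unadjusted p under 0.05 (-0.85, SE 0.38, unadjusted p 0.0468), at 4.93, 2.60, 5.27 and 4.57 CPM in TESA and 9.53, 4.85, 9.31 and 7.62 CPM in CTRL. TESA 1 and TESA 5 were above CTRL 4, so the groups overlapped. Without CTRL 2, TESA 3, CTRL 6, TESA 7 or CTRL 8 no gene of the list was lower at an unadjusted p under 0.05. The same held with library totals, in edgeR's exact test, with no filter and with filterByExpr. Without CTRL 4 there were 2 lower. Sperm glycolysis, 27 genes, had a median of -0.02, or 0.22 with library totals. Gapdh, the form of other tissues, was higher with 69.02, 71.02, 96.99 and 95.7 CPM in TESA and 45.04, 41.97, 81.4 and 50.5 CPM in CTRL (0.60, SE 0.26, unadjusted p 0.0444), with CTRL 6 inside the range of TESA. No gene of the list was higher at that p without CTRL 2, CTRL 4, TESA 5, TESA 7 or CTRL 8, under limma voom or with library totals. Gapdhs, the form of sperm, had 160.3, 114, 224 and 138 CPM in TESA and 171, 97.5, 128 and 195 CPM in CTRL, with overlap. Ion channels and capacitation signalling, 23 tested, had a median of 0.04 and no gene with an unadjusted p under 0.05, and Catsperb and Slc9c1 were not in the table. Acrosome and sperm-egg fusion genes, 34 tested and led by Crisp2, had a median of -0.03 (-0.23 under limma voom, 0.13 with library totals). Dpy19l2, which anchors the acrosome to the nucleus, was the one gene with an unadjusted p under 0.05 (0.0479). It was lower in TESA at no more than 75 counts in any library. No gene of the list was lower at that p without CTRL 2, TESA 3, CTRL 4, CTRL 6, TESA 7 or CTRL 8. With library totals or a robust fit there was none either. Without TESA 5 there were 2 lower and under limma voom 3.

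Among imprinted genes 22 of 48 were in the table, and 16 of the 21 tested were below 0 with a median of -0.33. With library totals the median was 0.01 and 10 were below 0, and none had an unadjusted p under 0.05; H19, Igf2, Mest, Peg10 and Dlk1 were not in the table. Gnas, a G protein subunit and the most abundant of them, had 157, 139, 124 and 139 CPM in TESA and 91.6, 126, 156 and 166 CPM in CTRL, with overlap. Trappc9, a trafficking protein with the smallest unadjusted p of the list (0.0862), had 29.9, 23.8, 23.1 and 11.4 CPM in TESA and 13.95, 15.4, 15.8 and 14.7 CPM in CTRL, so that 3 TESA libraries were above the controls, against the direction of the median, and TESA 7 below them with TMM. Of the long noncoding RNAs 15 were tested, with a median of 0.10 (-0.08 with filterByExpr, -0.13 under limma voom and -0.21 without TESA 3). Malat1, which stays in the nucleus, had 2307, 6407, 1912 and 2938 CPM in TESA and 2560.3, 6152, 2871 and 3173 CPM in CTRL. TESA 3 and CTRL 4 were far above the other libraries of their groups, and Xist was not in the table. Markers of other cells added single genes: the lysosomal protease Ctss had 5.86, 3.76, 5.03 and 5.00 CPM in TESA and 9.11, 8.49, 7.52 and 7.36 CPM in CTRL, without overlap (-0.72, SE 0.30, unadjusted p 0.0379). Of the libraries left out in turn, TESA 1 was the one without which a leukocyte marker was still lower at that p, and without any of the other 7, with library totals or in edgeR's exact test there was none. The leukocyte list had a median of -0.12 (0.20 under limma voom and 0.18 with library totals), which turns with the test and the scaling. Vwf of the endothelium had 21.7, 20.7, 20.1 and 18.1 CPM in TESA and 52.98, 30.3, 20.1 and 25.5 CPM in CTRL. The groups overlapped and CTRL 2 stood above the other controls, so that the log2 fold change of -0.68 (SE 0.30, unadjusted p 0.0471) was -0.31 without CTRL 2. No endothelial marker was lower at an unadjusted p under 0.05 without TESA 1, CTRL 2, TESA 3, CTRL 4, TESA 5 or TESA 7, under limma voom, with library totals, with DESeq2 size factors or with the 2 most abundant features left out. Msh4, of meiotic crossovers, had 1.48, 0.303, 1.72 and 1.33 CPM in TESA and 6.02, 1.78, 4.66 and 3.68 CPM in CTRL. These low levels leave a small gap between TESA 5 and CTRL 4 (-1.73, SE 0.66, unadjusted p 0.0252), and without CTRL 2 or CTRL 6 or with library totals no spermatocyte marker was lower at that p.

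The medians near 0 also turn when 1 library is left out. That of chromatin packaging was 0.01 without CTRL 2, of glycolysis 0.10 without CTRL 8, of ion channels -0.01 without TESA 5 and of acrosome genes 0.11 without CTRL 6. PPAR targets came to -0.11 without TESA 3 and lipid genes to 0.03 without TESA 5. Without CTRL 4 the median was 0.09 for DNA methylation, 0.12 for histone modifiers and 0.14 for Zfp genes. The piRNA pathway came to -0.20 without TESA 3, mRNA storage to 0.01 without CTRL 8, leukocyte markers to 0.23 without CTRL 2 and epididymal markers to -0.12 without TESA 7. Several lists that had no gene on one side at an unadjusted p under 0.05 gained some there: mRNA storage had 4 lower under limma voom and 2 without TESA 3, mitochondrially encoded mRNAs 2 lower without CTRL 4, and lipid genes 3 lower under limma voom. PPAR targets had 1 higher without TESA 3 and 1 lower without CTRL 2, imprinted genes 1 higher without TESA 7 and 1 lower without TESA 3, and chromatin packaging 1 higher without CTRL 8 and 1 lower without CTRL 4. Under limma voom the PPAR and RXR list, the piRNA pathway and the long noncoding RNAs had 1 lower each.

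Among 533 transposable elements tested by the same edgeR model, 0 (0%) reached an adjusted p below 0.05, the smallest adjusted p in edgeR being 0.329. At an unadjusted p under 0.05, 1 (0.188%) was higher in TESA and 66 (12.4%) were lower, and edgeR's exact test, DESeq2 and limma voom passed 0 as well, with 2 higher and 64 lower, 1 higher and 68 lower and 2 higher and 92 lower. All 4 TESA libraries lay below the 4 CTRL libraries for 45 elements (8.44%) and above for 0 (0%). The median log2 fold change was -0.32 and 422 elements were below 0. The size of this shift depends on the scaling. With library totals the median was -0.09, against 0.21 for all genes, 318 were below 0 and 3 were higher and 3 lower. TMM computed over the elements alone centres them near 0 by construction, so its median of 0.002 does not test the shift. With it 264 were below 0 and 14 were higher and 4 lower. The lower count also went to 36 without CTRL 2 and 42 without TESA 5, and the higher count to 4 without CTRL 2 or TESA 3. Every element fold change below is therefore relative to the genes of the same libraries.

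Grouped by family name, LINE elements had a median of -0.43 (102 of 112 below 0), ERVL-MaLR elements -0.33 (66 of 81), ERVK-like elements -0.31 (182 of 242), SINE elements -0.26 (29 of 36) and other LTR elements -0.25 (43 of 62). With TMM over the elements alone these medians were -0.10 (66 below 0), -0.01 (43), 0.01 (119), 0.07 (9) and 0.07 (27). This scaling centres the elements by construction, so these medians only compare the families with each other, and LINE elements lay lowest. At an unadjusted p under 0.05, 25 LINE, 25 ERVK-like, 13 ERVL-MaLR, 1 SINE (MIRb) and 2 other LTR elements (RLTR6-int and MER67C) were lower. LINE elements came to 10 without TESA 5, 12 without CTRL 8, 14 without CTRL 2 and 15 without TESA 1, ERVK-like elements to 16 without CTRL 2 or TESA 7, and ERVL-MaLR elements to 5 without CTRL 2, 7 without TESA 7, 8 without TESA 1 or TESA 5 and 20 without TESA 3. SINE elements came to 7 without TESA 3, 3 without CTRL 6 and 0 without TESA 1, CTRL 4, TESA 5 or TESA 7, and other LTR elements to 5 without TESA 3, 1 without TESA 5, TESA 7 or CTRL 8 and 0 without CTRL 2. With TMM over the elements alone the lower counts were 1, 3, 0, 0 and 0 in the same order of families, and with library totals 1, 2, 0, 0 and 0. L1Md_T, a young LINE and the most abundant element, had 46323, 49543, 30942 and 21407 CPM in TESA and 54666, 46676, 24467 and 24280 CPM in CTRL, and ORR1A3, an ERVL-MaLR repeat, 31058, 29189, 19891 and 11540 CPM and 36493, 36019, 22784 and 22577 CPM. TESA 7 was the lowest library for both and CTRL 2 the highest control, and the groups overlapped. L1M4, an old LINE, had 23.1, 28.9, 21.4 and 28.2 CPM in TESA and 31.8, 40.4, 39.7 and 54.004 CPM in CTRL. All TESA libraries were below all controls, CTRL 8 being highest, and the log2 fold change was -0.71 (SE 0.22, unadjusted p 0.00573). Lx6, another LINE, had 39.3, 35.1, 41.2 and 55.3 CPM in TESA and 72.4, 57.1, 75.3 and 61.5 CPM in CTRL, a narrow gap between TESA 7 and CTRL 4 (-0.64, SE 0.21, unadjusted p 0.00750). L1ME4b, RLTR45-int and RMER3D-int had log2 fold changes of -1.48, -1.08 and -1.15 with unadjusted p of 0.00700, 0.00635 and 0.00449. With TMM over the elements alone the groups overlapped in all 5, though each stayed below 0. BGLII_B2 was the one element higher at an unadjusted p under 0.05, with 29.7, 17.4, 35.8 and 13.7 CPM in TESA and 17.3, 14.6, 13.001 and 9.61 CPM in CTRL (0.83, SE 0.31, unadjusted p 0.0157), where TESA 7 fell into the range of the controls.

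**Figure D3:**
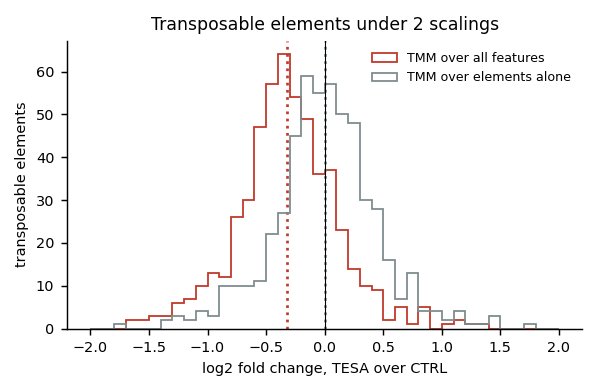
Number of transposable elements by log2 fold change, TESA over CTRL, for the 533 tested, with TMM over all features (red) and over the elements alone (grey); dotted lines are the medians. The first median is -0.32 and the second 0.002. TMM over the elements alone centres them near 0 by construction, so the second median does not test their direction.

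Promoters were searched for the sequence that PPAR binds with RXR, here 2 AGGTCA half-sites 1 base apart on either strand, in the 300 bases that RefSeq and GRCm38.p6 give around each start. Of 32851 promoters 13 (0.0396%) held it without mismatch and 182 (0.554%) with at most 1 mismatch in the half-sites. Among tested genes 7 held it without mismatch, Bco1, Etohd2, Isca1, Ranbp17, Srp54a, Srp54c and Wfdc15a, and none of them had an unadjusted p under 0.05. With at most 1 mismatch there were 45 tested genes with a median log2 fold change of 0.07, against 0.004 over the other tested genes with a promoter in the table. Fam193b and Elovl1 were higher and Gm8251 was lower at an unadjusted p under 0.05, 6.67% of these 45 genes against 2.17% of the others, which rests on 3 genes. Fam193b had 27.9, 36.5, 28.9 and 37.9 CPM in TESA and 24.6, 23.9, 19.6 and 20.2 CPM in CTRL. Its groups were apart (0.57, SE 0.20, unadjusted p 0.0188). Gm8251 had 12.5, 7.79, 2.76 and 5.78 CPM in TESA and 25.4, 13.1, 16.8 and 22.34 CPM in CTRL, apart in the other direction (-1.44, SE 0.43, unadjusted p 0.00805). Isca1, which builds iron-sulphur clusters in mitochondria, had 30.5, 34.1, 49.7 and 36.6 CPM in TESA and 26.99, 26.4, 44.2 and 50.1 CPM in CTRL, with overlap, and shares its 2 half-sites with Etohd2 on the opposite strand. The promoters of these 3 genes and of Elovl1 are shown 5′ to 3′ on the strand of the gene with the 2 half-sites and the base between them in capitals, at chr13:59769740-59770039 (minus strand), chr4:118429451-118429750 (plus strand), chr13:55571071-55571370 (minus strand) and chr1:44079697-44079996 (minus strand), of which Isca1 is an exact match and the others have 1 mismatch; Fam193b, Gm8251 and Isca1 were chosen after their values were seen. A match is a description of the letters and no measure of binding.
Isca1: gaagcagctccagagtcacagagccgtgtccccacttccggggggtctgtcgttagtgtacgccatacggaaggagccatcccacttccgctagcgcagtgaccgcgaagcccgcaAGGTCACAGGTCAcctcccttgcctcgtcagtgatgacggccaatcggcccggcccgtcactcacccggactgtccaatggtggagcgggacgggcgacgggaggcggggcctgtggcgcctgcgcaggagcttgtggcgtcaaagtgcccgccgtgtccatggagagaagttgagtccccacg
Elovl1: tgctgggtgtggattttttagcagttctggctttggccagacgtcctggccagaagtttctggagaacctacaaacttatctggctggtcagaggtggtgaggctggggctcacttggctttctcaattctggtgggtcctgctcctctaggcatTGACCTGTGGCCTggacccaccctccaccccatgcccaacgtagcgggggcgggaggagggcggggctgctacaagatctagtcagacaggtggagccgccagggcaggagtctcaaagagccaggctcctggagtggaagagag
Fam193b: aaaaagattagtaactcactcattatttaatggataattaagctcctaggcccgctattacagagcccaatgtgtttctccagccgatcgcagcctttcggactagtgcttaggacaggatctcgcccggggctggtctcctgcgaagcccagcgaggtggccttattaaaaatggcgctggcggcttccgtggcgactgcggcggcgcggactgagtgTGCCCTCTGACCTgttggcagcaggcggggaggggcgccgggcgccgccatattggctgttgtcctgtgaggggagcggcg
Gm8251: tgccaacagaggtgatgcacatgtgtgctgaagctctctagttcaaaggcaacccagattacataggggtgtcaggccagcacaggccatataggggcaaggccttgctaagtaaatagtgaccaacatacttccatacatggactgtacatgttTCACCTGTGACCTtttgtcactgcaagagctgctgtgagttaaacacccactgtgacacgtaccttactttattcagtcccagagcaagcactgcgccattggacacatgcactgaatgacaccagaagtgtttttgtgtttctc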

How the data were processed

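The 8 libraries hold polyadenylated RNA of cauda epididymal sperm, sequenced from stranded TruSeq libraries. The table gives estimated counts per gene or repeat family, as deposited: the authors trimmed reads with Trim Galore 1.16 and pseudo-aligned them with Salmon 0.11.2 to transcripts, piRNA precursors and repeat families of GRCm38, without normalization. Members and lists were chosen with earlier results of these data known.

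Estimated counts were rounded. Of the table's 16242 features, 15382 are mRNAs or lincRNAs and 624 transposable elements; the test took those that exceed 20 counts in 4 or more libraries, which left 13041 and 533. edgeR 4.0.16 (R 4.3.3) was run with TMM over all features and a quasi-likelihood test of TESA against CTRL without covariates, with Benjamini-Hochberg adjustment over the genes and over the elements separately. Each SE is the log2 fold change, without its sign, over the square root of the F statistic of the quasi-likelihood test. It is therefore no measure of spread apart from the p-value. Groups were taken from the labels, and there are 4 libraries per group. Totals run from 15337589 to 27709990 counts. Totals and 3 shares of counts were compared by an exact permutation test. Tables and figures were made in Python 3.11.15 with pandas 2.3.3, numpy 2.4.6 and matplotlib 3.10.9.

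Alternatives were edgeR's exact test, DESeq2 1.42.0, limma 3.58.1 voom with quality weights, 3 other scalings, the 2 most abundant features left out, no filter, filterByExpr, a robust fit and each library left out. Lists of 1427 genes in 37 lists, 1196 of which were in the table (11 by synonym), the Zfp genes and 5 element families are described by counts and medians without set tests.

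Genes could be named by rule: the 12 genes and 5 elements with the smallest p in each direction, the 10 most abundant features, in each list the most abundant member and the one with the smallest p, all mitochondrially encoded mRNAs, PPAR and RXR receptors, Tet genes, protamines and transition proteins, and list members with an unadjusted p under 0.05. Not every gene that the rule allows is given. Others are given as levels or were chosen after values were seen, as stated. The libraries of other times and types were left out because they were made by another protocol. The table gives no transcript lengths, so levels are not compared between genes.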

Additional observations from a re-analysis of the deposited data

Results flagged for a closer look

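In each group of 4 libraries the highest and the lowest were compared with the rest, for 104 quantities and 208 groups, and 9 libraries stood apart from the other 3 of their group. Chance marks about 1 in 20 groups, so 9 of 208 is not more than chance gives. The summed mitochondrially encoded mRNAs of TESA 1 came to 45884 CPM, with the other TESA libraries at 19569 to 21305. Nuclear respiratory chain genes summed to 2178.9 CPM in TESA 3, below the 3255 to 3398 of the others. The long noncoding RNAs of CTRL 4 summed to 8948 CPM, above 3882 to 4394.5. Tet2 stood at 22.7 CPM in CTRL 4 against 7.26 to 9.19 in the other controls, so its distance from TESA is drawn out by 1 library, although the other 3 controls are above TESA as well. Ppard was also high in CTRL 4, with 10.6 CPM against 7.86 to 8.16. Nr2c2 was low in TESA 7, with 4.66 CPM against 8.82 to 9.25. Nmi was high in CTRL 6, with 4.46 CPM against 1.13 to 1.62. Rxra was high in TESA 5, with 28.2 CPM against 16.6 to 17.7. Pcnt was high in CTRL 2, with 223.9 CPM against 127.9 to 133.2.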

How the results depend on the processing

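No gene and no transposable element passed an adjusted p of 0.05 in edgeR, DESeq2 or limma voom under any of the 18 alternatives, and the counts at an unadjusted p under 0.05 are given here and above. The 55 fold changes given for genes and elements kept their sign in all 18, with a smallest adjusted p of 0.136 over edgeR, DESeq2 and limma voom. Most of these features were named for a small p in the same libraries, so a kept sign was likely beforehand and is no separate support. The cause of each move below was not tested.

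Limma voom gave 387 higher and 533 lower genes and a median of -0.070. Library totals gave 26 lower genes, a median of 0.21 and 228 genes without overlap. Without single libraries higher genes ran from 82 to 206 and genes without overlap from 589 to 1010, where fewer libraries have to be apart. For transposable elements, the higher count was 2 with the exact test, limma voom, the 2 most abundant features left out, no filter or filterByExpr, 3 with library totals and 14 with TMM over the elements alone, and 0 to 4 without single libraries. The lower count was 3 with library totals, 4 with TMM over the elements alone and 36 to 95 without single libraries. The element median was -0.085 with library totals and 0.0020 with TMM over the elements alone, which centres them near 0 by construction. The share of counts on elements, TESA minus CTRL, ran from -0.64 to 0.32 points without single libraries and that on RP23-81C12.3 from -1.87 to 3.09. Of 774 list medians over the alternatives, 45 in 28 of 43 lists moved beyond the spread between libraries.

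No paired analysis was possible because the groups share no replicate numbers. Depth limits what can be seen: outside the 10 most abundant features between 3998624 and 14767094 counts remain per library, and 13041 of the 15382 genes in the table had enough counts to be tested.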

Other observations

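Fold change followed gene length, a pattern chosen after values were seen. Of the 13041 tested genes 10882 have a length in RefSeq, and in 4 classes of equal size, from the shortest to the longest, the median log2 fold change was 0.15, 0.06, -0.05 and -0.14. At an unadjusted p under 0.05 the shortest class had 54 higher and 11 lower genes and the longest 8 higher and 58 lower. Per library, the shortest minus the longest class was 0.20, -0.34, 0.29 and 0.30 in TESA and -0.03, -0.68, 0.17 and -0.11 in CTRL. TESA 3 and CTRL 4 were the lowest of their groups and the groups overlapped, and a link of length to the drug was not tested.

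Genes with only a clone name, also looked at after values were seen, numbered 1587 of those tested. Of these, 16 were higher and 51 lower at an unadjusted p under 0.05, with a median of -0.10 and 908 below 0. The other 11454 genes had 112 higher and 134 lower and a median of -0.00.

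Limits of these values are the 4 libraries per group, the 2 features that hold much of each library, and a scaling that moves the median of all genes. The labels give no batch, and whether cages or days of collection differ between the groups cannot be told. RNA of cells other than sperm cannot be separated from RNA of sperm, and protein was not measured.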
